A study of Homo sapiens with 6 samples.

Results

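The mitochondrial ribosomal proteins were followed through transcript levels in A549, an established line from a human lung adenocarcinoma, after heat and X-rays. The genes were all protein-coding genes whose platform symbol begins with MRPL or MRPS followed by a number. This gave 73 of the 14884 genes measured, 48 named for the large subunit (MRPL) and 25 for the small subunit (MRPS). Another 5 symbols of that form were left out because RefSeq lists them as long non-coding RNAs (MRPL20-AS1 and MRPL23-AS1) or transcribed pseudogenes (MRPL42P5, MRPL45P2 and MRPS31P5). MRPL12 and MRPS18C were not analysed here.

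There were 6 Affymetrix arrays, each of 1 group: 3 Gy of X-rays alone, an untreated control at 37 °C, 1 h at 41.5 °C followed by 3 Gy, 1 h at 41.5 °C alone, 1 h at 44 °C followed by 3 Gy, and 1 h at 44 °C alone. All groups were the same line grown at 37 °C in the same medium. Cells heated or irradiated alone were kept at 37 °C for 3 h before RNA extraction, whereas the time after the combined treatment is not stated and no time is given for the control, so a difference from the control may include time in culture. Whether each array had a culture of its own is not stated, so p-values rest on array-to-array spread that may be technical only. Because each group had 1 array, tests came from a model of all 6 arrays with temperature and radiation as additive terms. It compared 2 arrays per temperature and 3 per radiation level. A gene was called when its Benjamini-Hochberg adjusted p (limma, over all 14884 genes) was under 0.05. Values are log2 signals as the authors normalized them, differences are on the same log2 scale, and an error is the model's standard error (SE).

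Mitochondria carry their own ribosome, which makes the few respiratory chain proteins still encoded by mitochondrial DNA. All of its proteins are encoded in the nucleus, translated in the cytosol and imported, and they assemble on RNAs transcribed from mitochondrial DNA. Some descend from bacterial ribosomal proteins and keep their numbers, whereas most of those with higher numbers have no bacterial counterpart. The symbols do not always give the place of a protein, since MRPS30 and MRPS18A sit in the large subunit of the mammalian mitoribosome.

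Promoter sequences of 4 of these genes are shown because the heat results turn on them: MRPL18 was called higher at both temperatures, MRPS30 was called higher at 41.5 °C, MRPL52 had the largest called fall between the temperatures, and MRPL46 was 1 of the 2 genes whose fall was called under every alternative setting run. Each runs 5′ to 3′ on the gene's strand, from 250 bases before to 30 bases after the RefSeq transcript start, in GRCh38.p14. Capitals mark exact matches to a motif searched for, on either strand. In MRPL18 (chr6:159789562-159789841, plus strand) they are the SP1 motif GGGCGG, then the box CCAAT on the same strand, and a pair of heat shock units facing each other (GAANNTTC, here at bases 15 to 22 from the start). In MRPS30 (chr5:44808697-44808976, plus strand) they are 2 CCAAT boxes on the other strand and the YY1 motif AAGATGGC. In MRPL52 (chr14:22829637-22829916, plus strand) they are 2 YY1 motifs and, across the start on the other strand, the ETS motif CCGGAAG. In MRPL46 (chr15:88467359-88467638, minus strand) the capitals are 1 YY1 motif.
MRPL18: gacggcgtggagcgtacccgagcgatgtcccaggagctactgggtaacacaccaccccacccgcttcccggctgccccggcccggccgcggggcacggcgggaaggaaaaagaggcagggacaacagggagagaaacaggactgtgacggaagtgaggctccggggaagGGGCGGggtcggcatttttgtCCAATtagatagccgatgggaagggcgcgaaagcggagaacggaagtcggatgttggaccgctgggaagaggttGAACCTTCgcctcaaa
MRPS30: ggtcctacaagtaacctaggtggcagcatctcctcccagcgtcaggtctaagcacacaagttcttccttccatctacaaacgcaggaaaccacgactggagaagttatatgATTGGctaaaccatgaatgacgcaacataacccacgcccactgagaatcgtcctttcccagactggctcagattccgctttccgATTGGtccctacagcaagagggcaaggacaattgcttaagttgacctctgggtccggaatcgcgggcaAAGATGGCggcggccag
MRPL52: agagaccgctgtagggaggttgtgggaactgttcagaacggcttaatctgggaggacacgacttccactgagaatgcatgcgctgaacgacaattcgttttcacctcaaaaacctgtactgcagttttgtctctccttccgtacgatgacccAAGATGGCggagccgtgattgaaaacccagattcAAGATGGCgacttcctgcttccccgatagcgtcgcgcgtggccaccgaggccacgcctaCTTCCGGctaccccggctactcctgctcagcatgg
MRPL46: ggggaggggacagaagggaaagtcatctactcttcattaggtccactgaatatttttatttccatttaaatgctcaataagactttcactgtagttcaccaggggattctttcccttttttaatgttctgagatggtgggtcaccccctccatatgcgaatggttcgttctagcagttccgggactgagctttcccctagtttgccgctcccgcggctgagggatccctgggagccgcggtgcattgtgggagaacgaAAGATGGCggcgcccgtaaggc

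RefSeq promoter windows, here from 250 bases before to 50 after the start, were matched to 65 of the 73 genes. The YY1 motif AAGATGGC stood in 19 of the 65 (29.2%), against 3.91% of 15842 protein-coding promoters and 3.03% of all 27305 promoters. The ETS motif CCGGAAG stood in 28 (43.1%), against 14.2% of protein-coding promoters and 10.7% of all. The NRF1 motif TGCGCA stood in 11 (16.9%), against 10.8% and 8.42%. For SP1 (GGGCGG) the count was 40 (61.5%), against 58.5% and 44.6%, and for CCAAT it was 19 (29.2%), against 36.4% and 35.7%. The facing heat shock pair GAANNTTC stood in 6 (9.23%), against 5.56% and 6.87%, and the opposed pair TTCNNGAA in 8 (12.3%), against 6.6% and 7.84%. Both strands were searched throughout, and 2 genes, MRPL48 and MRPL51, held both heat shock forms. YY1, ETS factors and NRF1 are known as regulators of nuclear genes for mitochondrial proteins, but a match describes letters in a window and not binding.

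Of the 8 lung epithelial markers measured, 4 had mean signals above the median of all genes, 5.39: KRT18 at 11.51, KRT7 at 7.52, KRT8 at 6.65 and EPCAM at 6.11. The other 4 lay below it, SFTPB at 5.23, NKX2-1 at 4.74, KRT19 at 4.43 and SFTPC at 4.42, so the general epithelial markers except KRT19 were above the median and the 3 alveolar or lung lineage markers were not. Between 44 °C and 41.5 °C EPCAM was called higher, by 0.45 ± 0.11 SE, and KRT7 lower, at -0.40 ± 0.10 SE (limma adjusted p = 0.0249 and 0.023). The 3 endothelial and 2 fibroblast markers measured had mean signals under the median of all genes. Of the 3 genes measured from the leukocyte marker list, CD68, a lysosomal glycoprotein, had a mean signal of 8.71, CD14 of 5.41 and LYZ of 3.03. The mean of these 3 ran from 5.48 to 5.99 over the arrays. CD68 was called higher at 44 °C than at 37 °C (0.68 ± 0.08 SE, limma adjusted p = 0.000908), CD14 higher at 44 °C than at 41.5 °C (0.77 ± 0.13 SE, limma adjusted p = 0.00362), and their part in the results below was not tested. Heat shock genes showed the heating in the libraries labelled as heated: all 8 measured of 12 listed were called higher at 44 °C than at 37 °C, with a median difference of 2.41, and 5 of 8 at 41.5 °C, with a median of 0.96. At 44 °C they ran from STIP1 at 0.63 and HSPB1 at 0.81 to CHORDC1 at 3.00 and HSPA6 at 3.21. In bulk RNA, fewer cells with a transcript and less of it per cell cannot be told apart.

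Among the mitochondrial ribosomal protein genes, mean signals ranged from 4.91 for MRPL52 to 10.09 for MRPS21, with a median of 7.12, and 68 of 73 lay above the median of all genes. Signals of different genes also reflect their probes and are not ranked here. The median signal of the 73 genes at 37 °C was 7.03 with 3 Gy and 7.06 without. At 41.5 °C it was 7.26 with and 7.20 without, and at 44 °C it was 6.94 with and 6.97 without. Both arrays at 41.5 °C thus had higher medians than both at 37 °C, and both at 44 °C had lower ones. The same order held for the small subunit, where the medians were 7.26 and 7.35 at 37 °C, 7.67 and 7.46 at 41.5 °C, and 7.09 and 7.19 at 44 °C, with and without 3 Gy. It also held for the large subunit. There they were 6.82 and 6.87 at 37 °C, 6.95 and 6.96 at 41.5 °C, and 6.80 and 6.80 at 44 °C. These gaps between median signals were smaller than in the small subunit, but a median signal does not follow the same gene across arrays. The medians of the genes' own differences at 41.5 °C against 37 °C were 0.09 for the large and 0.02 for the small subunit.

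After 44 °C, 1 mitochondrial ribosomal protein gene was called higher than at 37 °C, MRPL18, and 0 were called lower. Of all genes, 6.11% were called in this comparison, 3.57% higher and 2.54% lower, and of the genes with signals above the median of all genes 4.21% were called lower. Most of the 73 had small negative differences: 55 (75.3%) were below 0, against 57.8% of all genes, and their median difference was -0.13, against -0.04. In 40 of the 73 (54.8%) both arrays at 44 °C lay below both at 37 °C, against 31.2% of all genes, and in 7 (9.59%) both lay above, against 19.9%. At an unadjusted p under 0.05, 21 were lower (28.8%, against 11.9% of all genes) and 2 were higher (2.74%, against 8.57%). Without either 41.5 °C array more of the 73 were called, the added ones lower. More of all genes were then called as well, in both directions. Without the irradiated 44 °C array more of the 73 but fewer of all genes were called. No single pair of arrays with the same radiation differed by 2-fold or more in any of the 73 genes.

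MRPL18, the counterpart of a bacterial protein that binds the small ribosomal RNA of the large subunit, is also known in human cells for a cytosolic form made under heat shock that has been reported to take part in translating heat shock messages. Its signal was 8.63 with and 8.82 without 3 Gy at 44 °C, against 7.98 with and 7.92 without at 37 °C. The arrays did not overlap, and the fitted difference was 0.78 ± 0.09 SE, or 1.71-fold (limma adjusted p = 0.000664). At 41.5 °C it was 8.66 with and 8.51 without 3 Gy, also above both arrays at 37 °C. The difference between 44 °C and 41.5 °C was 0.14 ± 0.09 SE and was not called (limma adjusted p = 0.403).

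The other large-subunit genes at 44 °C lay between -0.56 and 0.33. MRPL52, a protein with no bacterial counterpart, had 4.61 with and 4.37 without 3 Gy at 44 °C, against 4.98 with and 5.13 without at 37 °C. Its difference of -0.56 ± 0.15 SE missed the threshold (limma adjusted p = 0.0564), as did that of MRPL15, a counterpart of a bacterial protein, at -0.31 ± 0.08 SE (limma adjusted p = 0.0536). MRPL9 differed by -0.31 (limma adjusted p = 0.113). On the high side stood MRPL27, whose bacterial relative lies near the peptidyl transferase centre, at 0.33 ± 0.11 SE (limma adjusted p = 0.119), and MRPL20 at 0.21 (limma adjusted p = 0.261). Both arrays of MRPL27 at 44 °C, 7.52 with and 7.71 without 3 Gy, lay above those at 37 °C, 7.32 with and 7.25 without.

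In the small subunit 23 of 25 genes (92.0%) had negative differences at 44 °C. Arrays did not overlap in that direction in 15 (60.0%). In the large subunit the counts were 32 of 48 (66.7%) and 25 (52.1%). Of all genes 57.8% were negative and 31.2% did not overlap in that direction. The lowest small-subunit genes were MRPS31 at -0.36, MRPS34 at -0.32 and MRPS26 at -0.30, with limma adjusted p-values of 0.0923, 0.0621 and 0.164. The 2 positive ones of the small subunit were MRPS30 at 0.12 and MRPS12, a protein of the decoding centre, at 0.06, and the next was MRPS10 at -0.01. The medians were -0.09 for the large and -0.14 for the small subunit, a gap of 0.05 that was not tested.

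**Figure D1:**
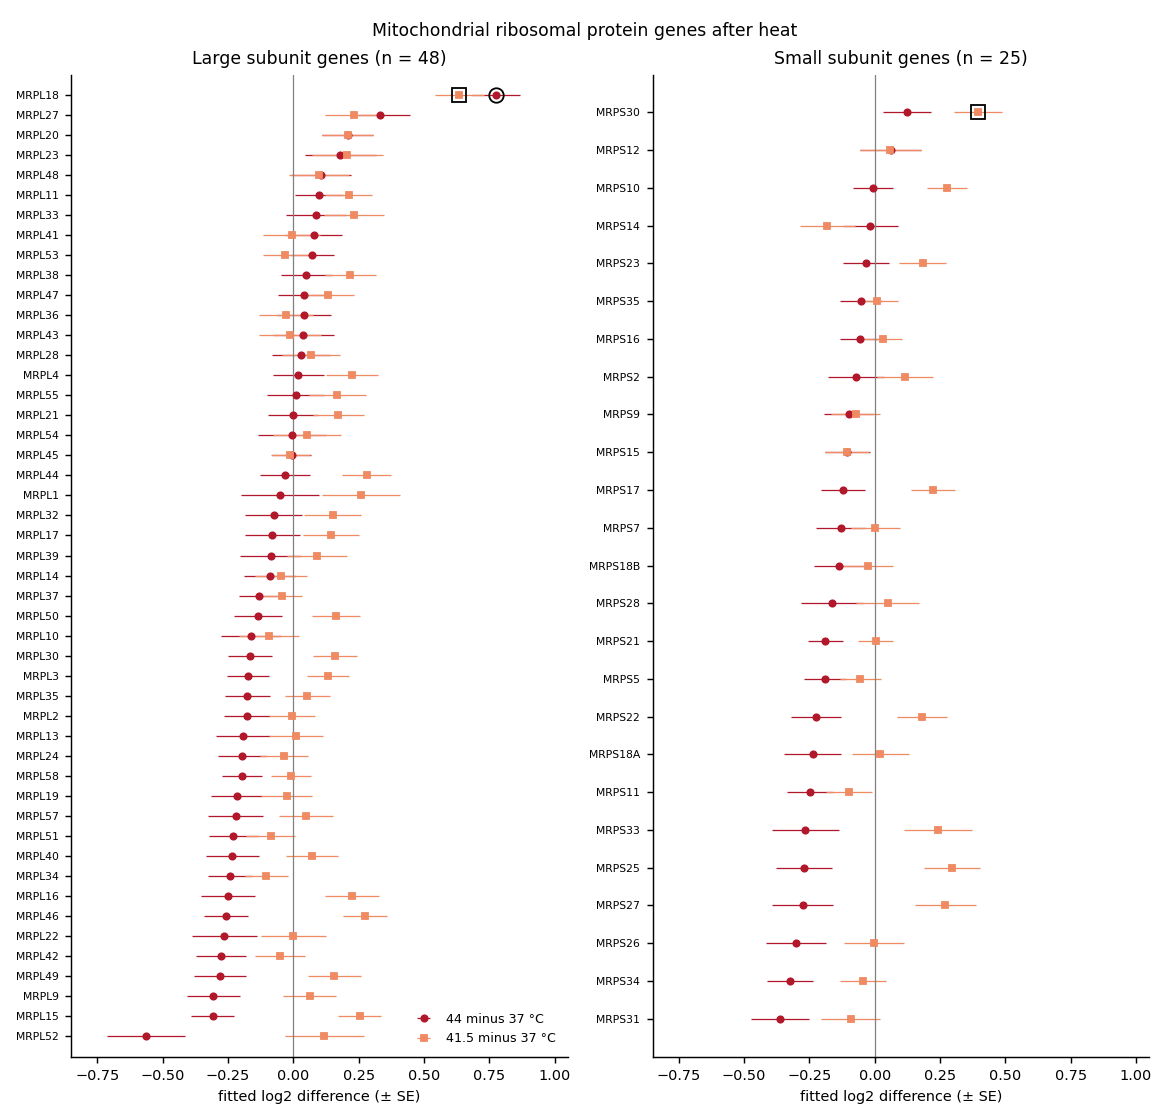
Fitted log2 differences (horizontal axis, with SE bars) of each of the 73 mitochondrial ribosomal protein genes at 44 °C and at 41.5 °C against 37 °C, large subunit on the left and small subunit on the right. Black outlines mark the called genes: MRPL18 at both temperatures and MRPS30 at 41.5 °C. The 44 °C comparison has 55 of 73 genes below 0 and the 41.5 °C comparison 48 of 73 above 0; the comparisons share their 37 °C arrays.

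After 41.5 °C the differences lay mostly on the other side of 0. MRPL18 and MRPS30 were called higher than at 37 °C and 0 of the 73 were called lower, where 3.29% of all genes were called, 2.18% higher and 1.1% lower (1.88% lower among genes with signals above the median). Of the 73, 48 (65.8%) were above 0, against 49.3% of all genes, and the median was 0.06, against -0.004 for all genes. Both arrays at 41.5 °C lay above both at 37 °C in 33 genes (45.2%), against 22.8% of all genes, and below both in 10 (13.7%), against 23.4%. At an unadjusted p under 0.05, 12 of 73 were higher (16.4%), against 9.16% of all genes, and 0 were lower, against 7.94% of all genes.

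MRPL18 differed by 0.64 ± 0.09 SE at 41.5 °C, or 1.55-fold (limma adjusted p = 0.00615). MRPS30 had 7.38 with and 7.38 without 3 Gy at 41.5 °C, against 6.98 with and 6.99 without at 37 °C. Its difference of 0.40 ± 0.09 SE, or 1.32-fold, passed narrowly (limma adjusted p = 0.0466). Neither gene was called without the irradiated array or without the control array at 37 °C. Calls over all genes, 489 in the main fit, were also far fewer there. MRPS30 also lost its call without either array at 41.5 °C, where all genes again had fewer calls. At 44 °C the MRPS30 signal was 7.03 with and 7.19 without 3 Gy.

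Below these 2, the highest differences at 41.5 °C did not pass the test. In the large subunit they were MRPL44, which has an RNase III-like fold, at 0.28 (limma adjusted p = 0.158) and MRPL46, a protein of the central protuberance, at 0.27 (limma adjusted p = 0.12). In the small subunit they were MRPS25 at 0.30 (limma adjusted p = 0.186) and MRPS10 at 0.28 (limma adjusted p = 0.0866). The 3 lowest of the large subunit were MRPL34 at -0.10, MRPL10 at -0.09 and MRPL51 at -0.09, and those of the small subunit were MRPS14 at -0.18, MRPS15 at -0.11 and MRPS11 at -0.10, all with limma adjusted p-values of 0.439 or more. The medians were 0.09 for the large and 0.02 for the small subunit, a gap of 0.07 that was also not tested.

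The 2 heated groups differed most. At 44 °C, 14 of 73 genes were called lower than at 41.5 °C (19.2%) and 0 were called higher, where 12.1% of all genes were called, 7.23% lower and 4.9% higher. Among the genes with signals above the median of all genes, a class that holds 68 of the 73, 12.4% were called lower. Negative differences were found in 61 of 73 (83.6%), against 53.9% of all genes, with a median of -0.19, against -0.02. Both arrays at 44 °C lay below both at 41.5 °C in 49 genes (67.1%), against 30.4% of all genes, and above both in 4 (5.48%), MRPL36, MRPL41, MRPL53 and MRPS14, against 23.6%. These 4 were named after their values were seen. At an unadjusted p under 0.05, 28 were lower (38.4%, against 14.9% of all genes) and 0 higher (against 10.4%). The count of calls depended on single arrays: it was 5 without the irradiated 41.5 °C array, 6 without the other 41.5 °C array or the irradiated 44 °C array, 7 without each of the 37 °C arrays and 9 without the unirradiated 44 °C array. It was 3 without an intensity trend in the model and 2 with unnamed features in the fit.

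Of the 14 called genes, 8 belong to the large subunit. MRPL15 had 7.68 with and 7.55 without 3 Gy at 44 °C, against 8.19 with and 8.16 without at 41.5 °C. Its fall of 0.56 ± 0.08 SE, or 1.48-fold, had the lowest adjusted p among the 73 (limma adjusted p = 0.00169). The 37 °C arrays of MRPL15, 7.94 with and 7.91 without, lay between the heated pairs.

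MRPL46 had 7.23 with and 7.25 without 3 Gy at 44 °C, against 7.76 with and 7.78 without at 41.5 °C, and its 37 °C arrays were at 7.51 and 7.49. The fall of 0.53 ± 0.08 SE (limma adjusted p = 0.00275) and that of MRPL15 were called in each of the 13 alternative settings. MRPL52 had the largest fitted fall, 0.68 ± 0.15 SE or 1.60-fold (limma adjusted p = 0.0156), with 4.61 with and 4.37 without 3 Gy at 44 °C, against 5.13 with and 5.22 without at 41.5 °C. These are dim signals, under the median of all genes.

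The other 5 large-subunit genes fell by less. MRPL16, whose bacterial relative lies near the catalytic centre, had 6.89 with and 6.84 without 3 Gy at 44 °C, against 7.47 with and 7.20 without at 41.5 °C, a fall of 0.48 ± 0.10 SE (limma adjusted p = 0.0147). MRPL49, with no bacterial counterpart, had 7.32 with and 7.25 without at 44 °C, against 7.92 with and 7.52 without at 41.5 °C, a fall of 0.44 ± 0.10 SE (limma adjusted p = 0.0186). In both genes the irradiated 41.5 °C array was the highest of the 6. MRPL9, MRPL30 and MRPL3, all counterparts of bacterial proteins, fell by 0.37, 0.33 and 0.31 (limma adjusted p = 0.0403, 0.0323 and 0.0354).

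The other 6 called genes carry small-subunit names. MRPS25, with no bacterial counterpart, had 6.94 with and 7.06 without 3 Gy at 44 °C, against 7.67 with and 7.46 without at 41.5 °C. It fell by 0.57 ± 0.11 SE, or 1.48-fold (limma adjusted p = 0.00761). MRPS27, a pentatricopeptide repeat protein, had 5.79 with and 5.61 without at 44 °C, against 6.20 with and 6.29 without at 41.5 °C, a fall of 0.55 ± 0.12 SE (limma adjusted p = 0.0137). MRPS33, also specific to mitochondria, had 5.44 with and 5.33 without at 44 °C, against 5.77 with and 6.01 without at 41.5 °C, a fall of 0.51 ± 0.13 SE (limma adjusted p = 0.0291).

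MRPS22, another mitochondrion-specific protein, had 6.91 with and 7.02 without 3 Gy at 44 °C, against 7.39 with and 7.35 without at 41.5 °C, a fall of 0.41 ± 0.10 SE (limma adjusted p = 0.0219). In all 4 of these genes the heated pairs were apart by more than the arrays of either pair. MRPS17 and MRPS10, counterparts of bacterial proteins, fell by 0.34 and 0.28 (limma adjusted p = 0.0242 and 0.0381), and neither was called in any of the 6 fits to 5 arrays.

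**Figure D2:**
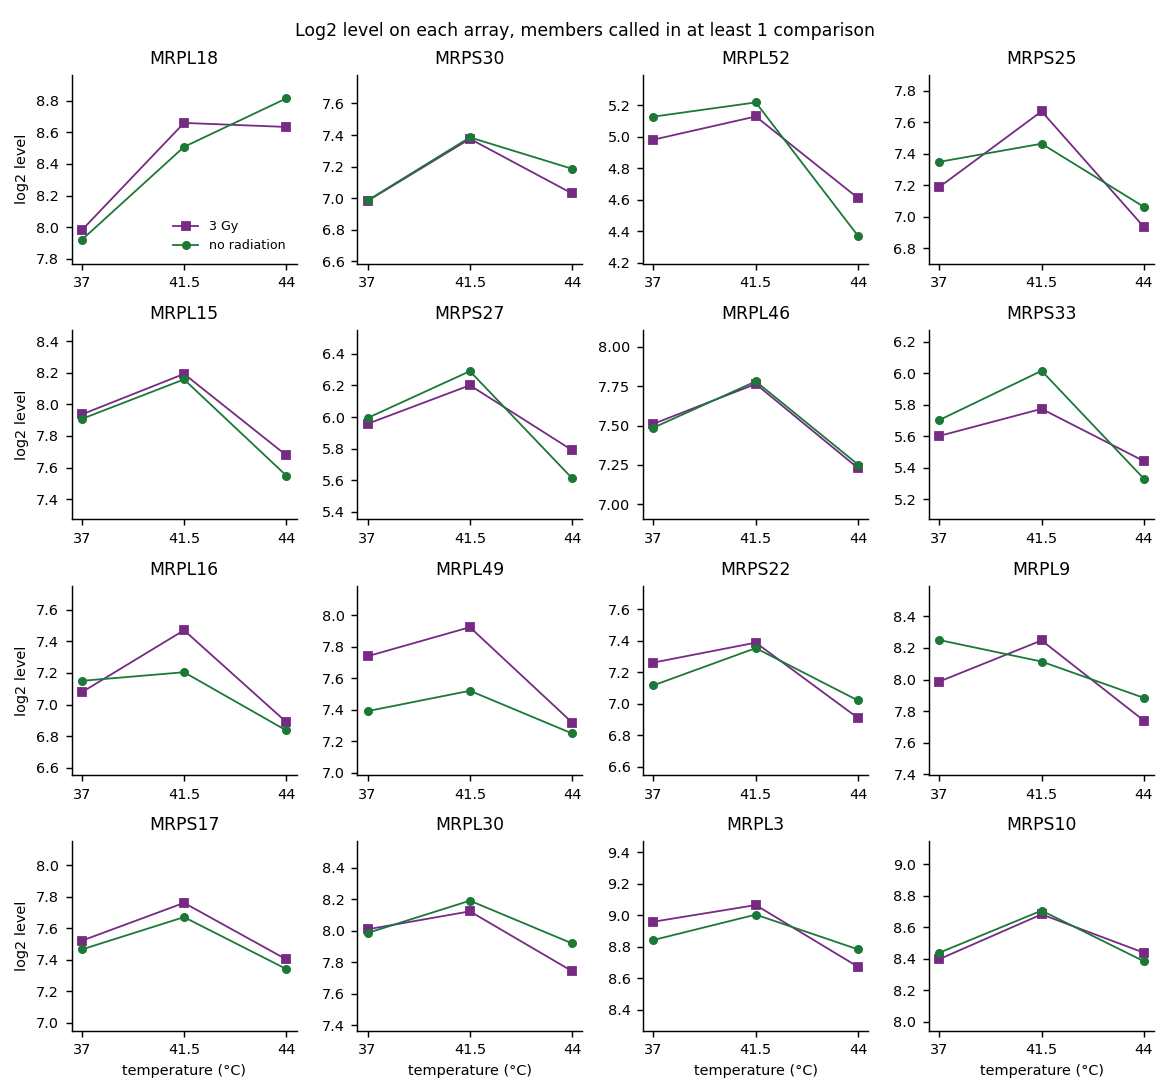
Log2 signal on each of the 6 arrays (vertical axis, the same span in every panel) against temperature (°C) for the 16 mitochondrial ribosomal protein genes called in at least 1 comparison. Squares are arrays with 3 Gy and circles arrays without; for MRPL15 the 44 °C arrays are at 7.68 and 7.55, below 8.19 and 8.16 at 41.5 °C.

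The calls were spread over both subunits, 8 of 48 large (16.7%) and 6 of 25 small (24.0%), where 7.23% of all genes were called lower. The medians were -0.17 for the large and -0.21 for the small subunit. The gap between the medians was 0.04, or 0.02 with MRPS30 and MRPS18A counted in the large subunit, and was not tested. By name, the small-subunit genes numbered above 21, most of which have no bacterial counterpart, had 4 of 11 called, all 11 negative and a median of -0.28, and those numbered up to 21 had 2 of 14 and a median of -0.13. In the large subunit 3 of 21 genes numbered above 36 were called, with a median of -0.17, and 5 of 27 numbered up to 36, also with a median of -0.17. The difference between these groups was not tested. The 3 measured stalk proteins (MRPL1, MRPL10 and MRPL11) and the 7 proteins listed for the tunnel exit and membrane side are not among the called genes, and their medians were -0.11 and -0.16. At the high end stood MRPS14 at 0.17, MRPL18 at 0.14, and MRPL53 and MRPL27 at 0.10 each, with limma adjusted p-values of 0.387 or more.

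The heat medians had the same signs with and without radiation. The median over the 73 genes between 44 °C and 41.5 °C was -0.20 with 3 Gy and -0.18 without, and between 44 °C and 37 °C it was -0.13 with and -0.09 without. Between 41.5 °C and 37 °C it was 0.10 with and 0.05 without. Over all genes the same medians were -0.03 and -0.02, -0.04 and -0.04, and -0.006 and -0.002.

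**Figure D3:**
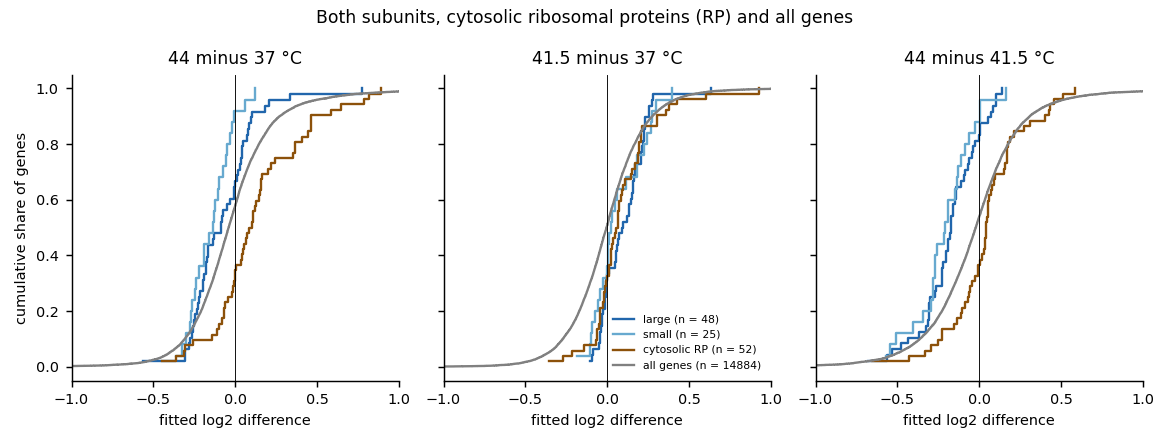
Cumulative share of genes (vertical axis, as a fraction) by fitted log2 difference (horizontal axis) in the 3 temperature comparisons. Curves are for the large-subunit genes, the small-subunit genes, 52 cytosolic ribosomal protein genes and all genes. The horizontal axis ends at -1 and 1. Between 44 °C and 41.5 °C both mitochondrial curves lie left of that of all genes, with medians of -0.17 and -0.21 against -0.02, and the cytosolic curve has a median of 0.04.

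The 52 cytosolic ribosomal protein genes were taken by symbol from the same arrays. Like-named genes such as RPL3L and RPL22L1 are included, and genes without a symbol in the annotation are not. At 44 °C against 37 °C, 10 of the 52 were called higher and 0 lower, where 3.57% and 2.54% of all genes were. Their median was 0.09. The mitochondrial ones had 1 of 73 called higher and 0 lower and a median of -0.13. The highest cytosolic ones were RPL31 at 0.89 and RPL32 at 0.82, both called (limma adjusted p = 0.019 and 0.0155). The lowest were RPL6 at -0.45 and RPL22L1 at -0.36, which were not called (limma adjusted p = 0.056 and 0.176). Between 44 °C and 41.5 °C, 6 cytosolic genes were called higher and 2 lower, RPL6 at -0.66 and RPL10A at -0.33 (limma adjusted p = 0.00608 and 0.0259), against 0 and 14 of the mitochondrial genes. The 2 lower ones are 3.85% of the 52, where 7.23% of all genes were called lower and 4.9% higher.

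Other genes of mitochondrial translation were read from lists of known members. Of the subunits with other symbols, 3 of 5 were measured. PTCD3 was called lower at 44 °C than at 37 °C (-0.39 ± 0.08 SE, limma adjusted p = 0.0229) and DAP3, a GTP-binding protein of the small subunit, lower at 44 °C than at 41.5 °C (-0.39 ± 0.10 SE, limma adjusted p = 0.0317). Of the translation factors 11 of 15 were measured, with medians of -0.22 at 44 °C against 37 °C and -0.29 against 41.5 °C. GUF1, a relative of bacterial elongation factor EF4, fell in both comparisons, by 0.43 (limma adjusted p = 0.0219) and 0.74 (limma adjusted p = 0.000756). So did MTFMT, which formylates the initiator tRNA, by 0.41 (limma adjusted p = 0.0206) and 0.35 (limma adjusted p = 0.0282). MRRF, the recycling factor, and MTIF2, an initiation factor, fell at 44 °C against 41.5 °C, by 0.57 and 0.38 (limma adjusted p = 0.0101 and 0.0336). QRSL1, a subunit of the enzyme that makes glutaminyl-tRNA in mitochondria, fell by 0.45 between the same groups (limma adjusted p = 0.0224), 1 of 2 measured of 20 genes listed for charging mitochondrial tRNAs.

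Factors that build the mitoribosome had lower medians than its proteins: -0.24 at 44 °C against 37 °C and -0.32 against 41.5 °C, over 21 measured of 24 listed. Between the heated groups 7.23% of all genes were called lower, and 12.4% of those with signals above the median. Of the 21 factors, 9 were called lower (42.9%) and 0 higher. The 2 with the largest falls were MRM1, a methyltransferase of the large ribosomal RNA, at -1.15 ± 0.14 SE (limma adjusted p = 0.000549) and FASTKD2, which binds that RNA, at -0.84 ± 0.11 SE (limma adjusted p = 0.00084). The other 7 were DDX28, MRM2, MTERF4, GTPBP10, DHX30, ERAL1 and TRUB2, between -0.74 and -0.38. At 44 °C against 37 °C, MRM1, MTERF4 and FASTKD2 were called lower, at -0.67, -0.47 and -0.43 (limma adjusted p = 0.0167, 0.0324 and 0.0461). They are 14.3% of the 21, against 2.54% of all genes called lower. At 41.5 °C GTPBP10, a GTPase of large-subunit assembly, was called higher by 0.49 ± 0.09 SE (limma adjusted p = 0.0203), the 1 call of the list, and the list's median was 0.15. Of all genes 2.18% were called higher there.

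Among 13 measured of 20 genes for mitochondrial transcription and RNA handling, FASTKD3, MTPAP, ELAC2 and PNPT1 were called lower at 44 °C than at 41.5 °C, at -0.69, -0.66, -0.46 and -0.33 (limma adjusted p = 0.00522, 0.0011, 0.00727 and 0.0254). MTPAP is the mitochondrial poly(A) polymerase and ELAC2 trims the ends of tRNA precursors. Of 6 measured of 12 regulators, YY1 was called higher at 44 °C than at 41.5 °C (0.67 ± 0.09 SE, limma adjusted p = 0.00084) and than at 37 °C (0.42 ± 0.09 SE, limma adjusted p = 0.0188), and NRF1 was called lower than at 41.5 °C (-0.38 ± 0.10 SE, limma adjusted p = 0.0339). Of 7 measured of 12 mitochondrial chaperones and proteases, the chaperonin HSPD1 was called higher at 44 °C than at 37 °C, by 0.69 ± 0.08 SE (limma adjusted p = 0.000564), and at 41.5 °C by 0.40 ± 0.08 SE (limma adjusted p = 0.0259). Between 44 °C and 41.5 °C it was called at 0.295 ± 0.08 SE (limma adjusted p = 0.0404). TRAP1 was called lower at 44 °C than at 41.5 °C, at -0.28 (limma adjusted p = 0.0387). Of 34 listed nuclear genes of the respiratory chain, whose products join those of the mitoribosome, 11 were measured. These 11 are UQCR genes, CYC1 and COX genes, and no NDUF, SDH or ATP5 gene of the list was measured. Their medians were -0.04 at 44 °C and -0.13 at 41.5 °C against 37 °C. COX6A1 was called higher at 44 °C than at 41.5 °C, by 0.27 ± 0.07 SE (limma adjusted p = 0.0425).

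Neighbouring genes were read next. RefSeq's nearest protein-coding genes on both sides were looked up after the values above had been seen, and 98 neighbours that are not themselves mitochondrial ribosomal protein genes were measured. Of these 98, 7 were called higher and 4 lower at 44 °C against 37 °C, where 3.57% and 2.54% of all genes were, and the median of -0.04 was that of all genes. Between 44 °C and 41.5 °C 7 were called higher and 12 lower, where 4.9% and 7.23% of all genes were. The 4 called lower at 44 °C against 37 °C were COA4 at -0.82, CCNL2 at -0.61, ATAT1 at -0.47 and GEMIN5 at -0.46. The 7 called higher there were HEY1 at 1.26, STX3 at 1.02, C22orf39 at 0.62, VEGFA at 0.61, and PNLDC1, FAU and CACYBP, described below. Next after MRPL18 comes PNLDC1, a trimming exonuclease of small RNAs. Its signal was 8.87 with and 8.85 without 3 Gy at 44 °C, against 4.13 with and 3.97 without at 37 °C, a 28.0-fold difference (4.81 ± 0.13 SE, limma adjusted p = 2.41e-08). At 41.5 °C it differed from 37 °C by 0.05 ± 0.13 SE (limma adjusted p = 0.894), whereas MRPL18 was 0.64 higher there. On the other side of MRPL18, in a promoter window that overlaps its own, lies TCP1, a subunit of the cytosolic chaperonin, which was not analysed here.

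FAU, which encodes a ubiquitin-like protein fused to a cytosolic ribosomal protein, starts from a window overlapping that of MRPL49 on the opposite strand. It had 7.35 with and 7.52 without 3 Gy at 44 °C, against 6.23 with and 6.06 without at 37 °C, a difference of 1.29 ± 0.11 SE (limma adjusted p = 6.29e-05), whereas MRPL49 differed by -0.28 ± 0.10 SE (limma adjusted p = 0.14). CACYBP, the calcyclin-binding protein, lies next to MRPS14 and was higher at 44 °C than at 37 °C by 1.19 ± 0.09 SE (limma adjusted p = 2.96e-05), where MRPS14 differed by -0.02. MRPL46 and MRPS11 share overlapping windows on opposite strands. Between 44 °C and 41.5 °C MRPL46 was called at -0.53 and MRPS11 was not, at -0.15 ± 0.09 SE (limma adjusted p = 0.346). PTCD2, which shares its window with MRPS27, was called lower in the same comparison (-0.51 ± 0.10 SE, limma adjusted p = 0.00966), as was MRPS27 (-0.55).

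**Figure D4:**
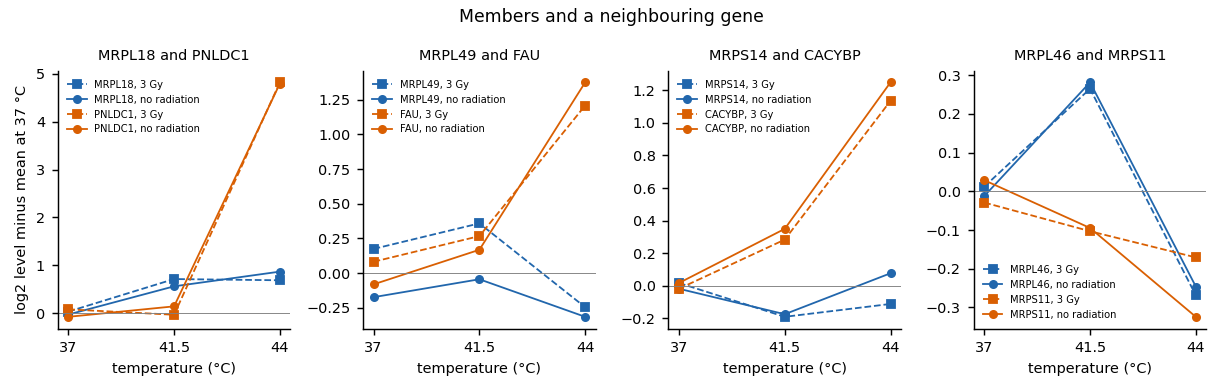
Log2 signal minus the gene's mean at 37 °C (vertical axis) on each array against temperature (°C) for 4 pairs of neighbouring genes: MRPL18 with PNLDC1, MRPL49 with FAU, MRPS14 with CACYBP, and MRPL46 with MRPS11. Squares are arrays with 3 Gy and circles arrays without. PNLDC1 stands 4.81 above its 37 °C mean at 44 °C and MRPL18 0.78. The 4 pairs were not picked by the naming rule.

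Of the 14 genes called lower at 44 °C than at 41.5 °C, 13 have a promoter window. The ETS motif stood in 7 of them, SP1 in 6, YY1 in 4, CCAAT in 3 and the NRF1 motif in 1. The facing heat shock pair stood in 0 of the 13, against 6 of all 65 (9.23%), and the opposed pair in 1. These counts are descriptions of few genes. Besides MRPL18, the facing pair stood in MRPL22, MRPL45, MRPL48, MRPL51 and MRPS35. At 44 °C against 37 °C these differed by -0.27, -0.01, 0.10, -0.23 and -0.05, and none of them was called. A link between the pair and the heat differences was not tested.

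With 3 Gy, 0 of the 73 genes were called, as were 0% of all genes (limma), and the adjusted p-values of the 73 ran from 0.609 to 0.999. At an unadjusted p under 0.05, 3 were higher (4.11%, against 2.57% of all genes), MRPL39, MRPL49 and MRPL10, and 0 were lower (against 2.35%). The median over the 73 was 0.02, against -0.0001 over all genes. In MRPL39, MRPL10 and MRPL47 all 3 irradiated arrays lay above all 3 others (4.11% of the 73, against 2.71% of all genes), and in 0 did they all lie below (against 2.79%). MRPL47 was named after its values were seen.

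MRPL39, a large-subunit protein related to threonyl-tRNA synthetases, had 5.93 with and 5.56 without 3 Gy at 37 °C, 6.08 with and 5.58 without at 41.5 °C, and 5.85 with and 5.46 without at 44 °C. The irradiated array was higher by 0.37, 0.50 and 0.39, and the fitted difference of 0.42 ± 0.09 SE did not pass the adjustment (limma adjusted p = 0.609). MRPL49 differed by 0.27 (limma adjusted p = 0.808) and MRPL10, a stalk protein, by 0.25 (limma adjusted p = 0.972). The lowest large-subunit differences were MRPL1 at -0.20, MRPL11 at -0.13 and MRPL9 at -0.09. The small-subunit genes ran from MRPS33 at -0.08, MRPS18B at -0.07 and MRPS14 at -0.06 to MRPS28 at 0.07, MRPS26 at 0.11 and MRPS31 at 0.12, with limma adjusted p-values of 0.997 for all 6.

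The median radiation difference of the 73 was 0.02 at 37 °C, 0.03 at 41.5 °C and 0.02 at 44 °C. The irradiated array was higher at all 3 temperatures in 11 genes (15.1%), against 12.3% of all genes, and lower at all 3 in 2 genes (2.74%), MRPL11 and MRPS30, against 11.4%. MRPS30 was named after its values were seen. The large and small medians of the fitted difference were 0.02 and 0.01.

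**Figure D5:**
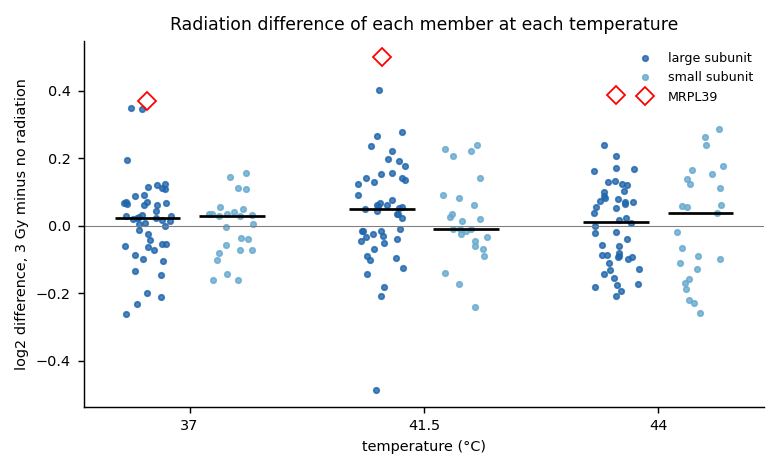
Log2 difference between the array with 3 Gy and the array without (vertical axis) for each of the 73 genes at 37, 41.5 and 44 °C, with large-subunit and small-subunit genes apart. Each point is 1 gene, bars are medians and diamonds are MRPL39, at 0.37, 0.50 and 0.39; every median lies between -0.01 and 0.05.

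A departure from additivity is the radiation difference in heated cells minus that in cells at 37 °C. It was computed from 4 single arrays and has no replicate check. At 41.5 °C it ran from -0.50 for MRPL1, -0.34 for MRPL33 and -0.30 for MRPL44 to 0.36 for MRPS25, 0.38 for MRPS26 and 0.40 for MRPL9. At 44 °C it ran from -0.29 for MRPS7, -0.28 for MRPL49 and -0.28 for MRPS18A to 0.28 for MRPL55, 0.39 for MRPL52 and 0.42 for MRPS26. Its median size was 0.10 at 41.5 °C and 0.12 at 44 °C, against 0.18 over all genes at each. A size of 0.5 or more was reached by 1 of 73 at 41.5 °C and 0 at 44 °C, against 11.2% and 11.4% of all genes. Since 68 of the 73 have signals above the median of all genes, the all-gene values include many dimmer genes. These sizes were not compared among genes of like signal.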

How the data were processed

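Transcript levels of 6 A549 samples were measured on Affymetrix arrays, 1 per group. The submitters' processing notes name Affymetrix Expression Console 1.1 and RMA, and the authors deposited log2 values. The build used for the probes is not stated. The table holds 53617 features. The platform annotation gives 1 gene symbol for 16098, several for 0 and none for 37519, and all 16098 matched RefSeq by gene identifier with 0 symbols changed. Each gene was read from its brightest feature on average, leaving 14884 genes. Of the 73 genes, 4 had several features. The 7 features of MRPS18B hold identical values, and MRPL44, MRPS16 and MRPS2 each have a second, dimmer one. The second features of MRPS16 and MRPS2 differed by 0.16 and 0.19 at 44 °C against 37 °C, where the features used differed by -0.06 and -0.07.

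An additive model, temperature as a factor plus radiation, was fitted to all 6 arrays and all 14884 genes with limma 3.58.1 in R 4.3.3, with variances moderated along the intensity (prior degrees of freedom 8.06, residual degrees of freedom 2, median residual SD 0.113). The residual holds any interaction as well as noise. The median SE was 0.138 between temperatures and 0.113 for radiation, and the number of arrays limits this precision. P-values are two-sided. Differences between the temperatures share arrays. No test was made of a list as a whole.

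The genes, lists and motifs were chosen with earlier results of these data known. By the naming rule, values are given for every called gene, the 3 highest and 3 lowest of each subunit in each comparison, the 3 highest and 3 lowest departures from additivity at each temperature, and, for other lists, called members or the highest and lowest members in the comparisons described. Neighbouring genes fell outside this rule, and the pairs described and drawn were not chosen by a rule set beforehand. Alternatives were no intensity trend, a further quantile normalization, median centring, dim genes left out, the mean of all features, all features fitted, temperature or radiation alone in the model, each array left out, and MRPS30 and MRPS18A moved to the large subunit. Promoters are RefSeq's, in GRCh38.p14.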

Additional observations from a re-analysis of the deposited data

Results flagged for a closer look

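Among the 12 genes with the highest and lowest fitted radiation differences of each subunit, 7, and the small-subunit median, are listed here because the difference between the array with 3 Gy and the array without had opposite signs at different temperatures. Mixed signs were common: of all 73 genes, 11 were higher and 2 lower with 3 Gy at all 3 temperatures, and the others changed sign. Each difference is between 2 single arrays and whether they differ between temperatures was not tested. The log2 differences below are at 37, 41.5 and 44 °C, and the span is the highest minus the lowest. MRPL1 had 0.02, -0.49 and -0.13, a span of 0.50. MRPL9 had -0.26, 0.13 and -0.14, a span of 0.40. MRPS14 had 0.04, -0.02 and -0.19, a span of 0.22, and MRPS18B had -0.07, 0.03 and -0.17, a span of 0.20. MRPS26 had -0.16, 0.22 and 0.26, a span of 0.42. MRPS28 had 0.11, -0.17 and 0.29, a span of 0.46, and MRPS33 had -0.10, -0.24 and 0.11, a span of 0.35. The median of the 25 small-subunit genes was 0.03, -0.01 and 0.04, a span of 0.0469.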

How the results depend on the processing

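The call of MRPL18 at 44 °C against 37 °C was kept in all 13 alternatives. The count of genes called there was 1, and it was 2 after a further quantile normalization, 3 with dim genes left out, 4 with temperature alone in the model, and 1 to 5 leaving out 1 array, the added calls being falls except MRPL27 without the irradiated 44 °C array. At 41.5 °C against 37 °C the 2 calls became 0 without the intensity trend, 1 after quantile normalization and 0 with all features fitted. Over all genes the 489 calls became 9, 490 and 14 in these settings. Neither of the 2 was kept without either 37 °C array, where calls over all genes also fell. At 44 °C against 41.5 °C the 14 calls became 3 without the trend, 2 with all features fitted, 10 after quantile normalization, and 5 to 9 leaving out 1 array: 5 without the irradiated 41.5 °C array, 6 without the other 41.5 °C array, 6 without the irradiated 44 °C array, 9 without the other 44 °C array, and 7 without each of the 37 °C arrays. Of the 14, 5 to 8 were kept in those 6 fits. Over all genes the same comparison gave 1805 calls, 791 without the trend and 636 with all features fitted. Each fit with 1 array left out also gave fewer than 1805. With 3 Gy the count was 0 throughout. The median difference ran from -0.14 to -0.10 at 44 °C and from 0.05 to 0.09 at 41.5 °C against 37 °C, from -0.20 to -0.14 between the heated groups, and from 0.003 to 0.02 with 3 Gy. Large minus small medians ran from -0.0002 to 0.07, 0.004 to 0.10, 0.007 to 0.07 and -0.01 to 0.03. No gene called in the main fit turned its sign in its comparison under any alternative. For named genes that were not called, a turn of sign was not recorded. Fewer arrays leave fewer degrees of freedom; otherwise the cause was not tested. No paired analysis was possible because the labels carry no replicate numbers, apart from the model's own terms, which already compare temperatures within each radiation level.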
